A study of Mus musculus with 14 samples.

Results

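Long-term hematopoietic stem cells (LT-HSCs) with high surface P-selectin were compared before and after a round of transplantation, over all expressed genes. The 4 Selp high libraries before transplantation held LT-HSCs sorted from female C57BL/6 mice older than 24 months and gated for high P-selectin. The 3 Selp high-derived libraries held donor LT-HSCs sorted 16 weeks after 1000 such cells were given to lethally irradiated recipients aged 10 to 16 weeks. All 7 libraries started from 5000 cells that were lineage-negative, Sca-1 positive, c-Kit positive, CD48 negative and CD150 positive. The cells after transplantation were gated for CD45.2, the donor form of the leukocyte antigen CD45, and not for P-selectin. Recipient, irradiation, the change of gate and the day of collection therefore all moved with stage, and their parts cannot be told apart. The labels name no untreated control that was sorted again without transplantation. They do not say whether each library after transplantation came from a separate recipient, so p-values measure the spread between these libraries. Of 29646 genes with a read in these 7 of the 14 libraries, 15759 passed the filter on low counts and were tested, 13061 of them protein-coding.

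LT-HSCs are the rare bone marrow cells that can rebuild all blood lineages, and most of them rest outside the cell cycle. In old mice they accumulate, carry a raised set of adhesion, megakaryocyte and stress genes, and rebuild blood less well. P-selectin, encoded by Selp, is an adhesion receptor known from platelets and endothelium, and its gene is among those raised in old stem cells.

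Reads assigned to genes numbered 25972480 to 29305598 per library before and 23469262 to 29226370 after transplantation. The first principal component held 47.3% of the variance and separated the stages, with scores of -53.7 to -43.1 before and 43.6 to 82.4 after. After counts were scaled to a common library size, the 100 most abundant genes took 15.2 to 17.8% of it before transplantation and 12.8 to 12.9% after. Selp high replicate 4 stood apart in neutrophil RNA. The summed level of 11 neutrophil markers was 294, 6394, 5266 and 21009 CPM (read counts scaled to a common library size) in the 4 libraries before and 374, 2183 and 2122 CPM in the 3 after, so the groups overlapped and 0 of the 11 were called. Erythroid markers summed to 347 to 1912 CPM before, highest in the same library, and 389 to 1055 CPM after. The 7 platelet markers summed to 66.6 to 110 CPM before and 99.7 to 125 CPM after, with Gp6 at 0 in all libraries. The 8 markers of mast cells, basophils and eosinophils summed to 1.92 to 173 CPM before and 6.61 to 133 CPM after, with Cma1 at 0. In bulk RNA, fewer cells of a type and less RNA per cell cannot be told apart. Xist, the RNA that coats the inactive X chromosome of female cells, also set Selp high replicate 4 apart, at 33.3, 36.2, 35.1 and 2.79 CPM in the libraries before and 3.83, 0.632 and 0.338 CPM after transplantation. A count is given below also without a library, this one or another, where leaving that library out moved it by over 1.5 times.

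After transplantation 1317 genes were higher (8.36% of those tested) and 1313 lower (8.33%), where called means a Benjamini-Hochberg adjusted p under 0.05 in edgeR's quasi-likelihood test. Without Selp high replicate 4 the counts were 1328 and 1300. They were 1465 and 1242 without Selp high replicate 2. The counts were lower, at 844 and 807 without Selp high replicate 3 and at 914 and 861, 760 and 788, and 674 and 640 without Selp high-derived replicates 1, 2 and 3. The median log2 change over all tested genes was -0.01. Among called genes, 552 rose and 712 fell at least 2-fold, and 41 rose and 177 fell at least 8-fold. Of the called genes, 1309 higher and 1300 lower had no overlap between the libraries of the stages. Over all tested genes, 15.2% lay wholly higher and 15.1% wholly lower.

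**Figure D1:**
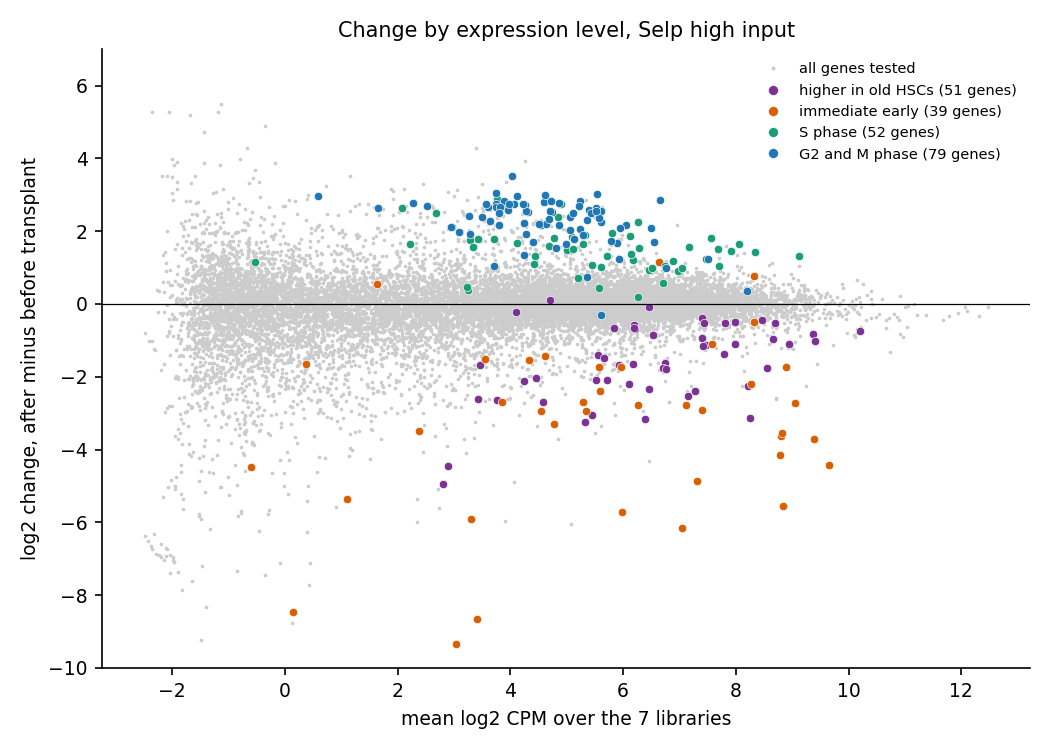
Each point is 1 of 15759 tested genes, with its mean log2 CPM over the 7 libraries on the x axis and its log2 change after minus before transplantation on the y axis. Coloured points are the members of 4 gene lists. The S phase and the G2 and M phase genes lie above 0 with few exceptions, and most immediate early genes and genes raised in old stem cells lie below 0.

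The 4 markers named with the comparison were picked with earlier results of these data known, so their values are a description. Jam2, a junctional adhesion molecule, was at 319, 317, 325 and 247 CPM in the 4 libraries before and 58.3, 53.4 and 44.2 CPM in the 3 after. Clu, a secreted chaperone, was at 869, 773, 805 and 688 CPM before and 106, 99.1 and 64.8 CPM after. Every library after transplantation was below every library before it for both genes, with log2 changes of -2.54 (SE 0.145, adjusted p = 1.9e-04) and -3.13 (SE 0.188, adjusted p = 1.9e-04). Slc22a3, a transporter of organic cations, moved the other way, from 4.14, 7.24, 4.73 and 8.44 CPM to 89.5, 75.5 and 114 CPM. Kcnk12, a potassium channel subunit, was at 1.61, 1.31, 1.42 and 2.35 CPM before and 12.4, 15.3 and 17 CPM after. Both rose without overlap, by 3.92 (SE 0.268, adjusted p = 2.2e-04) and 3.15 (SE 0.266, adjusted p = 3.3e-04).

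Of the 5 genes that encode sort antigens, 3 fell and none rose. Selp itself was at 667, 767, 763 and 618 CPM before and 305, 315 and 284 CPM after, a log2 change of -1.22 (SE 0.109, adjusted p = 4.2e-04). The cells before transplantation had been selected for high P-selectin protein and those after had not. Within this comparison this fall and the change of gate therefore cannot be told apart, and the change with Selp low input is given below. Slamf1, which encodes the CD150 used in both sorts, was at 226, 249.9, 279 and 218 CPM before and 123, 106 and 97.8 CPM after and fell by 1.16 on the log2 scale (SE 0.124, adjusted p = 7.7e-04). Ly6a, which encodes Sca-1, ran from 319.8 to 719 CPM before and 265 to 289 CPM after and fell by 0.85. Kit had a log2 change of 0.26 (adjusted p = 0.0976) and was not called, with 1089 to 1307 CPM before and 1381 to 1484 CPM after. Cd48, the gate's negative marker, ran from 1.03 to 15.9 CPM before and 5.69 to 10.9 CPM after, and the groups overlapped.

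**Figure D2:**
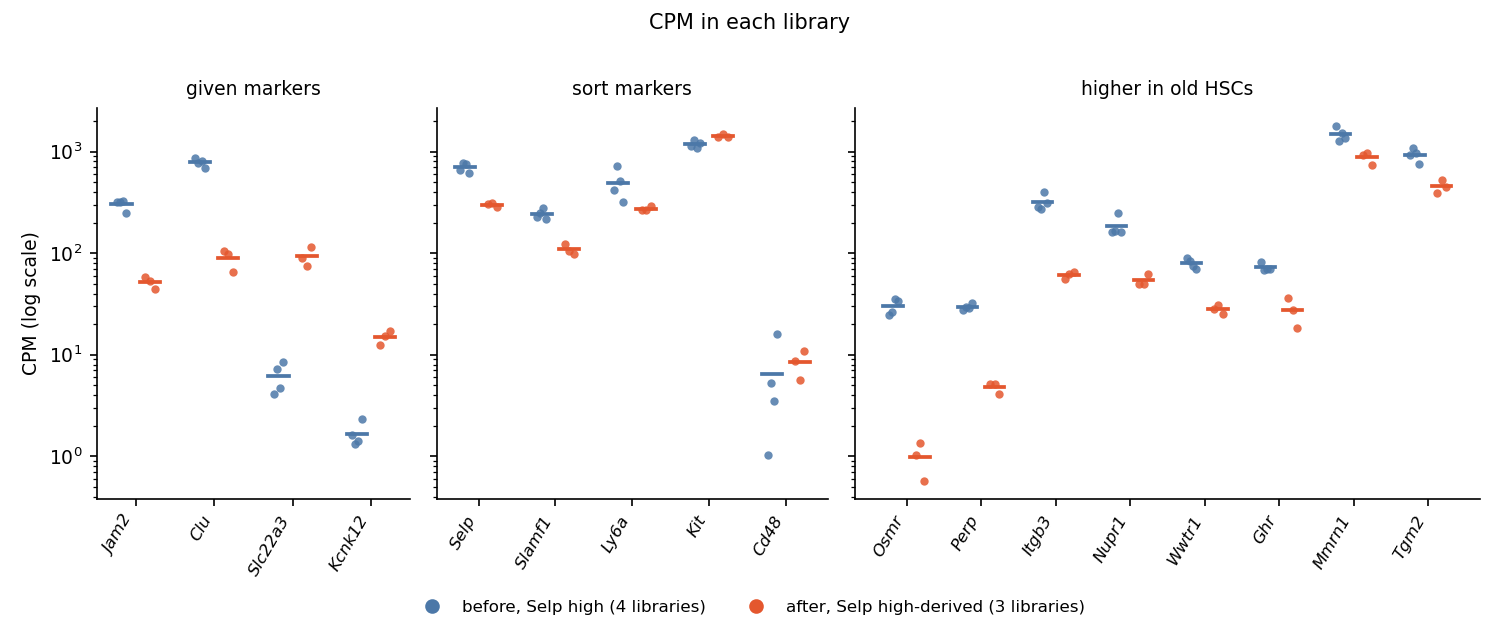
CPM on a log axis of the 4 named markers, the 5 sort antigens and 8 genes raised in old stem cells. Each point is a library, 4 before (blue) and 3 after (orange), and bars are group means. The stages separate for every gene shown except Cd48, with Slc22a3, Kcnk12 and Kit higher after transplantation and the others lower.

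Of 52 genes known to be raised in old HSCs, 51 were tested. Of these 44 fell (86.3%, against 8.33% over all tested genes) and 0 rose, with a median log2 change of -1.5. The list was chosen with earlier results of these data known and holds Jam2 and Clu, so its counts are a description. Of the 44 that fell, 43 had no overlap between the stages, and Ptger4 was the exception. Osmr, the oncostatin M receptor, was at 24.8, 26.3, 35.4 and 33.6 CPM before and 1.04, 1.35 and 0.574 CPM after. It fell by 4.94 on the log2 scale (SE 0.319, adjusted p = 1.9e-04), which left it near 1 CPM in all 3 libraries. Perp, a membrane protein of desmosomes, was at 27.8, 29.4, 29.1 and 32.1 CPM before and 5.15, 5.14 and 4.08 CPM after and fell by 2.63 (SE 0.165, adjusted p = 1.9e-04). The integrin subunit Itgb3 was at 283, 269.9, 398 and 311 CPM before and 55.4, 62.1 and 64.5 CPM after, a change of -2.38 (SE 0.154, adjusted p = 1.9e-04). The stress protein Nupr1, the transcription coactivator Wwtr1 and the growth hormone receptor Ghr fell by 1.78, 1.5 and 1.41. The members with the highest mean level were Mmrn1 and Tgm2. Mmrn1, a carrier of coagulation factor V in platelets, was at 1803, 1273, 1515 and 1361 CPM before and 937, 964 and 746 CPM after and fell by 0.75 (SE 0.146, adjusted p = 0.00948). The transglutaminase Tgm2 fell by 1.02, from 748 to 1077 CPM to 392 to 521 CPM. The von Willebrand factor gene Vwf and the retinal dehydrogenase gene Aldh1a1, named for their wide use as markers and not by rule, fell by 1.11 (adjusted p = 0.0239) and 0.45 (adjusted p = 0.00818). Donors of both stages were the same old age group, so the list does not compare old with young cells.

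Immediate early genes, whose transcription starts within minutes of a stimulus, made up 7 of the 12 largest falls by the naming rule. Of 39 tested, 35 fell, 2 rose and 2 were not called, with a median log2 change of -2.90. Fos, a subunit of the AP-1 transcription factor, was at 3702, 1412, 6662 and 2161 CPM before and 14.7, 187 and 19.98 CPM after. Its partner Jun was at 2096, 2658, 2841 and 1613 CPM before and 80.2, 367 and 77.4 CPM after, and the related Fosb at 68.4, 11.2, 113 and 91.3 CPM and 0.608, 2.53 and 0.54 CPM. None of these groups overlapped, though Selp high-derived replicate 2 was the highest of the 3 later libraries for all of them. Fos fell by 5.56 (SE 1.09, adjusted p = 0.00998), Jun by 3.72 (SE 0.597, adjusted p = 0.0041) and Fosb by 5.90 (SE 0.911, adjusted p = 0.00345). The zinc finger factor Egr1 was at 2891, 1929, 4480.5 and 3129 CPM before and 106, 199.8 and 125 CPM after, a change of -4.43 (SE 0.349, adjusted p = 2.8e-04). Junb was at 1298, 1164, 1558 and 1278 CPM before and 90.2, 157 and 89.99 CPM after, with the smallest p of the list and a change of -3.56 (SE 0.234, adjusted p = 2.0e-04).

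The stress factor Atf3 had the largest fall of any protein-coding gene that met the naming rule. It was at 114, 28.8, 307 and 211 CPM before and 0, 0.674 and 0.135 CPM after, and its fitted log2 change of -9.35 (SE 1.14, adjusted p = 0.00129) leans on the few reads after transplantation. The matrix protein gene Ccn1 was at 116, 17.7, 347 and 273 CPM before and 0.286, 1.1 and 0.101 CPM after, and the orphan nuclear receptor Nr4a1 at 627, 232, 1109.7 and 1897 CPM and 9.58, 19.3 and 12.1 CPM. Selp high replicate 2 was the lowest of the 4 earlier libraries for Atf3, Ccn1, Nr4a1 and Fosb, and it was still above every later library. Klf2, a factor tied to quiescence in lymphocytes and endothelium, was at 256, 280.4, 637 and 279.6 CPM before and 4.83, 8.76 and 6.99 CPM after and fell by 5.73 (SE 0.434, adjusted p = 2.5e-04). Ppp1r15a, which directs the removal of the phosphate from the translation factor eIF2-alpha, fell by 2.90 (SE 0.221, adjusted p = 2.5e-04). The antiproliferative gene Btg2 was at 447, 216, 1322 and 1164 CPM before and 14.4, 35.4 and 31.6 CPM after and fell by 4.86 (SE 0.702, adjusted p = 0.00259). Egr2 was at 6.17, 1.65, 17.7 and 30.4 CPM before and 0.0357, 0.506 and 0.473 CPM after, a fall of 5.37. The 2 members that rose were Myc and the phosphatase gene Dusp6. Myc was at 206, 272, 314 and 241 CPM before and 399, 412 and 499 CPM after and rose by 0.76 (SE 0.15, adjusted p = 0.0104), and Dusp6 by 1.14 (SE 0.24, adjusted p = 0.0135).

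Inducible genes of other signal pathways fell in part. Of 30 tested NF-kB pathway genes 13 fell and 2 rose, with a median change of -0.43, and 8 fell without Selp high-derived replicate 1 or 3. The inducible inhibitors Nfkbiz and Nfkbid were at 225, 38, 556 and 242 CPM and 157, 77, 190.3 and 136 CPM before. After transplantation they were at 1.64, 7.46 and 3.14 CPM and 8.83, 20.6 and 11.4 CPM, falls of 6.04 (SE 0.962, adjusted p = 0.00395) and 3.37 (SE 0.387, adjusted p = 0.0010). Nfkbia, the classical inhibitor, fell by 0.87 and Bcl3 by 1.23, while the subunit gene Nfkb1 rose by 0.69 (SE 0.0958, adjusted p = 0.00211) and the kinase gene Ikbkb by 0.51. Of 28 tested genes of cytokine signal feedback 8 fell and 1 rose. Socs3, an inhibitor of cytokine receptors, was at 232, 187, 639 and 304 CPM before and 18.4, 18.9 and 13.6 CPM after and fell by 4.33 (SE 0.455, adjusted p = 7.7e-04). The kinase gene Pim2 fell by 1.88 and the growth factor antagonist Spry1 by 1.19. Ptgs2, the inducible cyclooxygenase and no list member, was at 83.9, 21.1, 119 and 180.1 CPM before and 1.79, 2.11 and 1.01 CPM after and fell by 5.96 (SE 0.754, adjusted p = 0.00152).

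Genes of DNA replication rose. Of 52 tested S phase genes 44 rose and 0 fell, with a median log2 change of 1.5. Cdt1, which loads the replicative helicase, was at 23, 22.2, 19.1 and 26.8 CPM before and 82.1, 76.8 and 96.1 CPM after and rose by 1.90 (SE 0.141, adjusted p = 2.5e-04). Among the helicase subunits, Mcm2 was at 134, 149.9, 156 and 187 CPM before and 432, 419.9 and 436 CPM after, Mcm3 rose by 1.43 and Mcm6 by 1.32. The catalytic subunit gene of DNA polymerase delta, Pold1, was at 90.6, 92.1, 83.1 and 97.5 CPM before and 232, 260.1 and 321 CPM after and rose by 1.58 (SE 0.122, adjusted p = 2.8e-04). Every library after transplantation was above every earlier one for each of these 5 genes. Selp high replicate 4 was the highest of the 4 earlier libraries for all 5.

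Genes of mitosis rose in a larger share and by more. Of 79 tested G2 and M phase genes 77 rose and 0 fell, with a median log2 change of 2.42. Kif18b, a mitotic kinesin, was at 5.94, 5.21, 4.56 and 7.68 CPM before and 58.6, 51.1 and 91.8 CPM after and rose by 3.52 (SE 0.253, adjusted p = 2.3e-04). Espl1, the separase that cuts cohesin, was at 4.25, 4.16, 3.52 and 11 CPM before and 35, 46.6 and 62 CPM after and rose by 3.06 (SE 0.406, adjusted p = 0.00182). Foxm1, a transcription factor of mitotic genes, was at 6.32, 5.89, 5.49 and 8.2 CPM before and 32.9, 40.2 and 65.7 CPM after and rose by 2.84 (SE 0.258, adjusted p = 4.6e-04). Selp high-derived replicate 3 was the highest library for all 3. The cyclin gene Ccnf rose by 2.31 (SE 0.213, adjusted p = 4.6e-04) and the condensin subunit gene Ncapd2 by 2.10 (SE 0.194, adjusted p = 4.6e-04). Bub3, a checkpoint protein with a high level before transplantation, rose by 0.36 only, from 243 to 282 CPM to 324 to 363 CPM. The proliferation marker Mki67, named outside the rule, was at 10.3, 10.8, 10.9 and 42.7 CPM before and 97.6, 87.5 and 132 CPM after and rose by 2.50 (SE 0.503, adjusted p = 0.0113). Other cell division genes were among the 12 largest rises by the naming rule, with log2 changes for Kntc1 (3.31), Pimreg (3.35), Fam83d (3.29) and Sapcd2 (3.13).

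**Figure D3:**
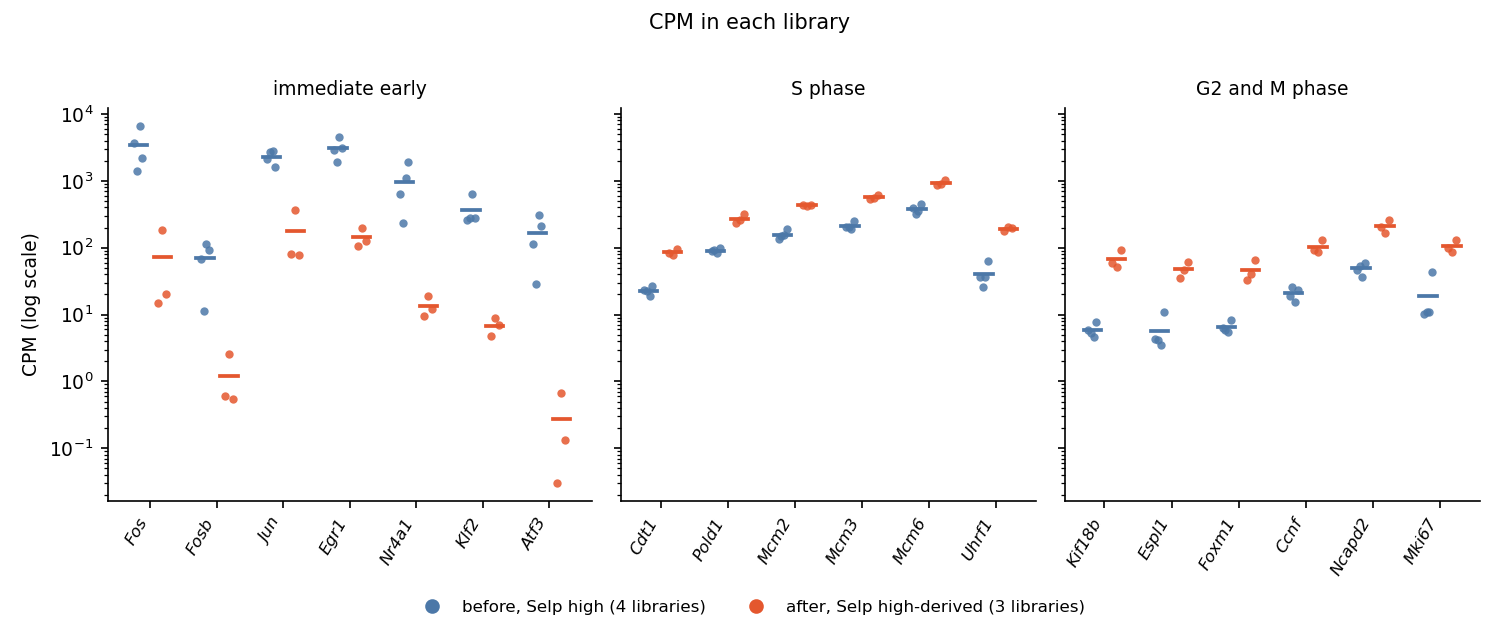
CPM on a log axis of 7 immediate early, 6 S phase and 6 G2 and M phase genes. Each point is a library, 4 before (blue) and 3 after (orange), bars are group means, and a value of 0 is drawn at 0.03. The stages do not overlap for any gene shown, and immediate early genes are lower and cell cycle genes higher after transplantation.

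Of 36 tested genes of homologous recombination and the Fanconi pathway, which repair breaks and crosslinks during replication, 26 rose and 0 fell, with a median of 1.33, and 17 rose without Selp high-derived replicate 3. Fancd2, the central protein of the pathway, was at 2.3, 2.33, 2.94 and 4.34 CPM before and 26.6, 21.9 and 26.8 CPM after and rose by 3.08 (SE 0.255, adjusted p = 3.3e-04). Rad54l rose by 2.10 (SE 0.176, adjusted p = 3.3e-04), the nuclease gene Exo1 by 2.21 (SE 0.186, adjusted p = 3.3e-04) and Dna2 by 1.41. The linker nuclease gene Ankle1 was at 1.99, 0.263, 1.35 and 3.38 CPM before and 14, 10.03 and 21.4 CPM after and rose by 3.12 (SE 0.631, adjusted p = 0.0116).

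Genes that brake the cell cycle fell in part. Of 25 tested quiescence genes 8 fell (32%) and 2 rose (8%), with a median of -0.40. Over all tested genes 8.33% fell and 8.36% rose. The imprinted gene Dlk1 was at 5.63, 38, 69.3 and 54.2 CPM before and 0.965, 1.14 and 0.473 CPM after and fell by 5.62 (SE 0.857, adjusted p = 0.00327). Matn4, a matrix protein that restrains HSC division, was at 118, 78.2, 62.3 and 92.7 CPM before and 7.01, 7.79 and 5.5 CPM after and fell by 3.70 (SE 0.25, adjusted p = 2.2e-04). The imprinted Peg3 fell by 5.22 from a low level of 2.3 to 6.86 CPM, and Tsc22d3 by 0.61. The pocket protein gene Rbl1 rose by 1.33 (SE 0.193, adjusted p = 0.00263), and the kinase inhibitor gene Cdkn2c by 0.84. Of 35 tested p53 targets 11 fell and 3, Gtse1, Psrc1 and Apaf1, rose. With 1 library left out, 6 fell without Selp high replicate 3, Selp high-derived replicate 2 or Selp high-derived replicate 3, and 7 without Selp high-derived replicate 1 or with the replicate number as a block. Gtse1 and Psrc1 also serve mitosis, and they rose by 2.18 and 2.24. Among those that fell, Btg2 is also an immediate early gene and Perp is also on the list of genes raised in old HSCs. Cdkn1a, the classical p53 target that blocks cyclin-dependent kinases and named outside the rule, was at 38.4, 21.3, 67.7 and 150.03 CPM before and 5.08, 8.26 and 7.19 CPM after and fell by 3.34 (SE 0.637, adjusted p = 0.00896). The levels of Trp53 itself overlapped, at 204 to 287 CPM before and 241 to 304 CPM after.

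Promoter sequence was examined for the immediate early, S phase and G2 and M phase genes that were called, with the immediate early genes that fell and the others that rose. RefSeq windows (GRCm38.p6) from 250 bases before to 50 bases after each start were searched on both strands. Some forms of the CArG box contain CCAAT, so a site can count for both motifs. The CCAAT box (CCAAT, bound by NF-Y) was in 76.1% of the 71 windows of called G2 and M phase genes and the cell cycle homology region (TTTGAA) in 64.8%, against 37.4% and 17.9% of all 32851 windows and 37.6% and 12.4% of the 13978 windows of tested genes. The 71 windows belong to 64 of the 77 called genes. An E2F site (TTTCCCGC or TTTGGCGC) was in 31.6% of the 38 windows of 34 called S phase genes, against 1.56% of all windows and 2.78% of those of tested genes. The CCAAT box was in 57.9% of the S phase windows and TTTGAA in 7.89%, and the E2F site in 7.04% of the G2 and M phase windows. A cAMP response element (TGACGTCA) was in 4 (10%) of the 40 windows of 30 immediate early genes that fell. It was in 1.79% of all windows, 2.87% of those of tested genes and 7.04% of the G2 and M phase windows. The CArG box, bound by serum response factor, was in 6 (15%) of the 40, against 1.63% of all windows and 1.29% of those of tested genes. Egr2 alone has 5 of the 40 windows, and the number of genes with each site was not counted. The AP-1 site (TGANTCA) was in 2.5% of these 40 windows, against 7.81% of all and 5.39% of those of tested genes. Windows of 1 gene can overlap, and the shares are descriptions without a test. The 250 bases before the start are printed for genes described above, to show where the letters stand. Capitals mark the cAMP response element in Ppp1r15a (chr7:45526269-45526518, minus strand) and Btg2 (chr1:134079156-134079405, minus strand), the CArG box in the first of 5 listed Egr2 windows that holds it (chr10:67537316-67537565, plus strand) and the E2F sites in Mcm6 (chr1:128359706-128359955, minus strand). In Espl1 (chr15:102296043-102296292, plus strand), Ccnf (chr17:24251410-24251659, minus strand) and Ncapd2 (chr6:125191587-125191836, minus strand) they mark the CCAAT box, which reads ATTGG on the other strand, and TTTGAA.
Ppp1r15a: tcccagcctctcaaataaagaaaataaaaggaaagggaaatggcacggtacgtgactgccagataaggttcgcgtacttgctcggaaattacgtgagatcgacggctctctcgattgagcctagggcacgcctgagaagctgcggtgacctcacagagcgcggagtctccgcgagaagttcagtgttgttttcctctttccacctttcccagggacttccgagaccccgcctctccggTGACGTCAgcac
Btg2: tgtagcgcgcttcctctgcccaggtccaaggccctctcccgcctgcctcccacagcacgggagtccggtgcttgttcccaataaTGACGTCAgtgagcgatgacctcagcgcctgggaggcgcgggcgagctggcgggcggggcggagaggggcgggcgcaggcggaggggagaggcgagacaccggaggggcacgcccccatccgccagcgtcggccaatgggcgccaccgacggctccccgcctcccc
Egr2: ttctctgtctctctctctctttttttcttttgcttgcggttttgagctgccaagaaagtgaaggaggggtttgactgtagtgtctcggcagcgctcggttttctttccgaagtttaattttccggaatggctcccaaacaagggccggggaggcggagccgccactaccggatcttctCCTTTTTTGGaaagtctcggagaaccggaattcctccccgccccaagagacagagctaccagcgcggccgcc
Mcm6: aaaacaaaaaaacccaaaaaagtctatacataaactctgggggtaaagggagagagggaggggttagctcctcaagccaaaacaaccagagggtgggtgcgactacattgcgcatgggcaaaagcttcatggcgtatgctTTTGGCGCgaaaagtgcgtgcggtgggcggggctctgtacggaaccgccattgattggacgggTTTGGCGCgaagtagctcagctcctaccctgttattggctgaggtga
Espl1: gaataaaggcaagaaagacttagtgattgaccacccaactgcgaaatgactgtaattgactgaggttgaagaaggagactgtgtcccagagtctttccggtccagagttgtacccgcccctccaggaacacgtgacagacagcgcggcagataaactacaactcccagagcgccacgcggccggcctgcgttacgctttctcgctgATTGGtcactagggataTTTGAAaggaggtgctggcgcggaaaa
Ccnf: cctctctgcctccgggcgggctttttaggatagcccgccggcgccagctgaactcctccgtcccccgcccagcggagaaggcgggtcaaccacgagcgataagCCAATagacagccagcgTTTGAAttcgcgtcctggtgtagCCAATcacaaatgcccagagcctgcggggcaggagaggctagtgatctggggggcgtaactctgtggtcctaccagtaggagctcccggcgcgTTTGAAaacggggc
Ncapd2: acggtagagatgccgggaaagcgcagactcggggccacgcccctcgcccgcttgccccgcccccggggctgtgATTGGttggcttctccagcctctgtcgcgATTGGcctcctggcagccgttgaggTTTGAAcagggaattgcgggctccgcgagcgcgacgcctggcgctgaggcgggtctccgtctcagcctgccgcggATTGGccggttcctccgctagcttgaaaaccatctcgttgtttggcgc

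Smaller shares were called among genes that define stem cells. Of 30 tested HSC transcription factors 7 fell and 1 rose, with a median of -0.27. The 7 became 4 without Selp high replicate 1 and 3 without Selp high replicate 3 or Selp high-derived replicate 2 or 3. The polycomb gene Bmi1 fell by 0.85 (SE 0.103, adjusted p = 0.00126), Runx1 by 0.64 and Lmo2 by 0.36. Runx3 was the member that rose, from 7.13, 9.002, 11.2 and 14 CPM to 27.6, 37.1 and 46.9 CPM, a change of 1.85 (SE 0.26, adjusted p = 0.00228). Among markers of LT-HSCs, 3 of 9 fell and 0 rose. These were Ctnnal1 (-0.82), Hoxb5 (-0.89) and Procr (-0.55), which encodes the surface receptor EPCR. Procr was at 374, 345, 329 and 235 CPM before and 238, 214 and 204 CPM after, and its groups overlapped through Selp high replicate 4. Meis1 and Mecom were not called, with 447 to 528 CPM and 252 to 356 CPM before and 446 to 453 CPM and 191 to 271 CPM after. The 9 markers summed to 3233 to 3717 CPM before and 2658 to 2987 CPM after.

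Of 28 tested HSC surface and niche receptors 10 fell and 2, Itga4 and Itgb1, rose, and 6 fell without Selp high replicate 1, Selp high replicate 3 or Selp high-derived replicate 3. Itgb1 was called in edgeR's test with all libraries and lost its call when any of the 7 was left out. Ifitm1 and Ifitm3, interferon-induced membrane proteins, fell by 1.12 (SE 0.103, adjusted p = 4.6e-04) and 0.84 (SE 0.106, adjusted p = 0.00144). Itga4, the integrin subunit that binds VCAM1 in marrow, was at 36.7, 43.2, 41.4 and 42.1 CPM before and 82.8, 64.2 and 73 CPM after and rose by 0.84 (SE 0.118, adjusted p = 0.00227). Of 18 tested Hox genes 7 fell and 0 rose, with a median of -0.89. The 7 became 4 without Selp high replicate 1 and 3 without Selp high replicate 3 or Selp high-derived replicate 2 or 3. Hoxb9 was at 13.3, 9.19, 9.5 and 9.31 CPM before and 1.29, 2.15 and 1.25 CPM after and fell by 2.73 (SE 0.299, adjusted p = 8.5e-04), and Hoxb6 fell by 2.26 and Hoxa5 fell by 2.12. Hoxa9, a highly expressed member, overlapped between the stages, at 49.8 to 64.3 CPM before and 51.6 to 53.7 CPM after.

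Genes of multipotent progenitors, the dividing cells that stem cells give rise to, rose in part. Of 30 tested 10 rose and 0 fell, with a median of 0.47, and 6 rose without Selp high-derived replicate 3. Flt3, a cytokine receptor that LT-HSCs have little of, was at 5.06, 9.83, 7.84 and 10.7 CPM before and 28.8, 21.7 and 30.5 CPM after and rose by 1.69 (SE 0.261, adjusted p = 0.00345). Cd34 was at 168, 102, 141 and 175 CPM before and 311, 306 and 431 CPM after and rose by 1.25 (SE 0.197, adjusted p = 0.00376). The kinase gene Cdk6, which speeds exit from quiescence, was at 29.9, 30.6, 48.1 and 62.9 CPM before and 138, 129 and 132 CPM after and rose by 1.63 (SE 0.246, adjusted p = 0.00311). Sox4 was at 78.2, 119, 95.9 and 70.5 CPM before and 235, 259 and 321 CPM after and rose by 1.58 (SE 0.186, adjusted p = 0.00109). Gcnt2 was not called, at 329 to 385 CPM before and 362 to 395 CPM after.

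Lineage genes were called both ways, for most lists in shares not far from those over all tested genes, 8.36% higher and 8.33% lower. The shares higher and lower were 3.45% and 13.8% for myeloid priming genes and 11.1% and 11.1% for lymphoid priming genes. They were 3.33% and 0% for erythroid genes and 10.5% and 28.9% for megakaryocyte and platelet genes. The median log2 changes of these 4 lists, in the order given, were -0.91, -0.35, -0.11 and -0.28, against -0.01 over all tested genes. Among myeloid priming genes 24 of 29 had a lower value after transplantation, most of them without a call. Of 29 tested myeloid priming genes 4 fell and 1, Nkg7, rose, and 8 fell without Selp high replicate 1. The granule protease gene Prtn3 was at 407, 397, 445 and 440.1 CPM before and 164, 161 and 148 CPM after and fell by 1.42 (SE 0.0915, adjusted p = 1.9e-04). The transcription factor gene Cebpb fell by 2.26, Cebpd fell by 2.12 and Klf4 fell by 3.48 and is also an immediate early gene. Lyz2, which neutrophils express at a high level, was at 600.3, 1356, 1344 and 3084 CPM before and 764, 805 and 986 CPM after and was not called. Of 27 tested lymphoid priming genes 3 rose, Sox4, Runx2 and Tcf3, and 3 fell, Ets1 (-1.64), Id2 (-1.23) and Id3. Without Selp high replicate 3 or Selp high-derived replicate 2 or 3, 1 rose. Sox4 and Runx2 are also on the list of multipotent progenitor genes. Of 30 tested erythroid genes 1 rose, Gata1, from 3.1, 4.5, 10.7 and 12.5 CPM to 25.5, 19 and 31.7 CPM (SE 0.451, adjusted p = 0.0322), and 4 rose without Selp high replicate 4 and 0 without Selp high replicate 3 or any 1 of the later libraries. Of 38 tested megakaryocyte and platelet genes 11 fell and 4 rose. Plek and Cavin2 fell by 1.32 and 1.36. Against that, Gp5, which encodes glycoprotein V of platelets, was at 18, 10.2, 13.2 and 12.4 CPM before and 37.5, 53.8 and 57.3 CPM after and rose by 1.88 (SE 0.221, adjusted p = 0.00109). Ppbp, a platelet chemokine, was at 0.843, 0.75, 1.002 and 1.75 CPM before and 7.83, 9.14 and 5.1 CPM after and rose by 2.76 (SE 0.373, adjusted p = 0.00197). The other 2 that rose were Gp1ba (1.07) and Itga2 (2.11).

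Genes of adhesion and of TGF-beta and BMP signals fell more often than they rose. Both lists share members with that of genes raised in old HSCs, so some falls are counted again. Among these are Jam2, Clu, Itgb3 and Mmrn1 on the adhesion list and Wwtr1 and Amotl2 on the other. Of 59 tested adhesion and matrix genes 22 fell and 5 rose, with a median of -0.39, and 2 rose without Selp high replicate 3 or any 1 of the later libraries. Adgrg1, a highly expressed adhesion receptor of HSCs, was not called, at 5288 to 6245 CPM before and 4955 to 5894 CPM after. Of 37 tested TGF-beta, BMP and Id genes 12 fell and 0 rose, and 7 fell without Selp high-derived replicate 2 or 3. The ligand gene Bmp4 was at 53, 59.1, 39.4 and 27.3 CPM before and 4.75, 5.39 and 5.94 CPM after and fell by 3.06 (SE 0.283, adjusted p = 4.6e-04). Amotl2, a target of the YAP and TAZ coactivators, fell by 2.08 (SE 0.296, adjusted p = 0.00243). Kdr, a VEGF receptor on the endothelial list, was at 52.8, 104, 62.1 and 51 CPM before and 11.5, 14.6 and 10.1 CPM after and fell by 2.49 (SE 0.284, adjusted p = 9.8e-04). The 7 endothelial markers summed to 178 to 255 CPM before and 129 to 147 CPM after, 2 of 6 tested fell and 0 rose, and their part in the falls of adhesion genes was not tested.

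Transporters and channels went both ways. Of 40 tested 7 fell and 6 rose, Slc22a3, Kcnk12, Kcna3, Piezo1, Slc38a1 and Slc1a5. With 1 library left out, 3 rose without Selp high-derived replicate 2, and 3 to 4 fell without Selp high replicate 3 or any 1 of the later libraries. The potassium channel gene Kcna3 was at 7.67, 5.74, 6.56 and 6.93 CPM before and 40.1, 28.1 and 35.8 CPM after and rose by 2.37 (SE 0.179, adjusted p = 2.5e-04). The cation channel gene Trpc1 fell by 1.67, and Kcnb2, a voltage-gated potassium channel, was at 32.7, 40.1, 32.4 and 18.8 CPM before and 0.357, 1.52 and 0.911 CPM after and fell by 5.07 (SE 0.476, adjusted p = 4.6e-04). The largest rise by the naming rule was that of Mc5r, a melanocortin receptor, from 1.8, 1.88, 2.49 and 6.49 CPM to 77.1, 47.6 and 60.5 CPM, a log2 change of 4.29 (SE 0.448, adjusted p = 7.4e-04). Selp high replicate 4 was the highest of the 4 earlier libraries for Mc5r, Slc22a3 and Kcnk12, and it stayed below every later one. Spsb4, an adaptor of ubiquitin ligases, was at 0.345, 0.638, 0.725 and 1.43 CPM before and 9.01, 8.43 and 9.35 CPM after and rose by 3.50 (SE 0.424, adjusted p = 0.00125).

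Chromatin regulators mostly rose where they were called. Of 47 tested 15 rose and 4, Bmi1, Sirt1, Ezh1 and Cbx7, fell. Some are counted again here, such as Uhrf1, also an S phase gene, and Bmi1, also an HSC transcription factor. Dnmt1, the maintenance DNA methyltransferase, was at 143, 141, 135 and 146 CPM before and 364, 411 and 502 CPM after and rose by 1.59 (SE 0.115, adjusted p = 2.3e-04). Its partner Uhrf1 rose by 2.25 (SE 0.255, adjusted p = 9.5e-04) and Dnmt3b by 0.97 (SE 0.112, adjusted p = 0.0010). Lbr, the lamin B receptor, rose by 0.51. Of 26 tested histone genes, whose close copies can share reads and many of whose messages lack a poly(A) tail, 6 rose and 2 fell, and 1 to 3 rose without Selp high replicate 3 or any 1 of the later libraries. Hist1h2ae was at 6.59, 7.2, 6.67 and 7.64 CPM before and 33, 17.7 and 28.8 CPM after and rose by 1.91. The linker histone gene Hist1h1c fell by 1.32.

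Of 42 tested detoxification and antioxidant genes 15 fell and 1, Cat, rose, and 8 fell without Selp high-derived replicate 2. The secreted peroxidase gene Gpx3 was at 134, 116, 159 and 113 CPM before and 10.6, 14.3 and 8.91 CPM after and fell by 3.54 (SE 0.207, adjusted p = 1.9e-04). The metallothionein gene Mt1 fell by 1.75 and the sulfotransferase gene Sult1a1 by 1.77, and both are also on the list of genes raised in old HSCs. Of 29 tested heat shock chaperones 6 fell and 1, Hspa14, rose, and 3 fell without Selp high-derived replicate 3. Dnajb1, a cochaperone of HSP70, was at 462, 267, 669.7 and 629.97 CPM before and 132, 139 and 155 CPM after and fell by 1.84 (SE 0.287, adjusted p = 0.00363). Of 37 tested genes of the unfolded protein and stress response 9 fell and 3 rose, and 2 to 4 fell without Selp high replicate 3 or any 1 of the later libraries. Trib3 fell by 1.15, while the serine synthesis genes Psat1 and Phgdh rose by 1.01 and 0.84. Of 32 glycolysis genes, counted under 33 identifiers, 7 fell and 1 rose, and 3 to 4 fell without Selp high replicate 3 or Selp high-derived replicate 2 or 3. The glucose transporter gene Slc2a3 fell by 0.89 (SE 0.133, adjusted p = 0.00304) and the regulator Pfkfb3 by 1.61.

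Of 30 tested cholesterol synthesis genes 8 rose and 0 fell, with a median of 0.41, and 0 to 5 rose when any library but Selp high replicate 1 was left out. Sqle rose by 0.72 (SE 0.149, adjusted p = 0.0122). Of 29 tested MHC genes 5 rose and 0 fell, and 3 rose without Selp high replicate 3 or Selp high-derived replicate 1 or 3. These were Cd1d1 (0.94), Nlrc5 (0.90), the transactivator of class I genes, H2-Ob (1.28), Psmb9 (0.52) and Psmb8 (0.44). Of 48 tested type I interferon genes 5 fell and 1 rose, and 3 fell without Selp high-derived replicate 1 or 3. The share that fell, 10.4%, was near the 8.33% over all tested genes. Ly6e was at 2086, 2902, 2686 and 2228 CPM before and 1304, 1412 and 1488 CPM after and fell by 0.82 (SE 0.131, adjusted p = 0.00398), and Ifi44 fell by 1.01. Of 81 tested cytosolic ribosomal protein genes 10 fell (12.3%, against 8.33% over all tested genes) and 0 rose, with a median of -0.31. Their count was 1 to 4 without Selp high replicate 1 or 4 or any 1 of the later libraries, and 0 when the spread was shared over all 14 libraries. Rps27 fell by 0.81 and Rpl37a by 0.70. Of 80 tested nuclear genes of oxidative phosphorylation none was called in edgeR's test, and of 77 mitochondrial ribosomal protein genes 1, Mrpl18, rose. Of 13 mitochondrially encoded genes 8 were tested, and none was called. The 5 not tested, mt-Nd4l, mt-Co2, mt-Co3, mt-Atp6 and mt-Atp8, had at most 4 counted reads in any library. Mitochondrial genes summed to 0.603 to 1.59% of the scaled library size before and 0.647 to 0.856% after. Reads mapped to several places are not in these sums, so they need not be the full mitochondrial share.

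**Figure D4:**
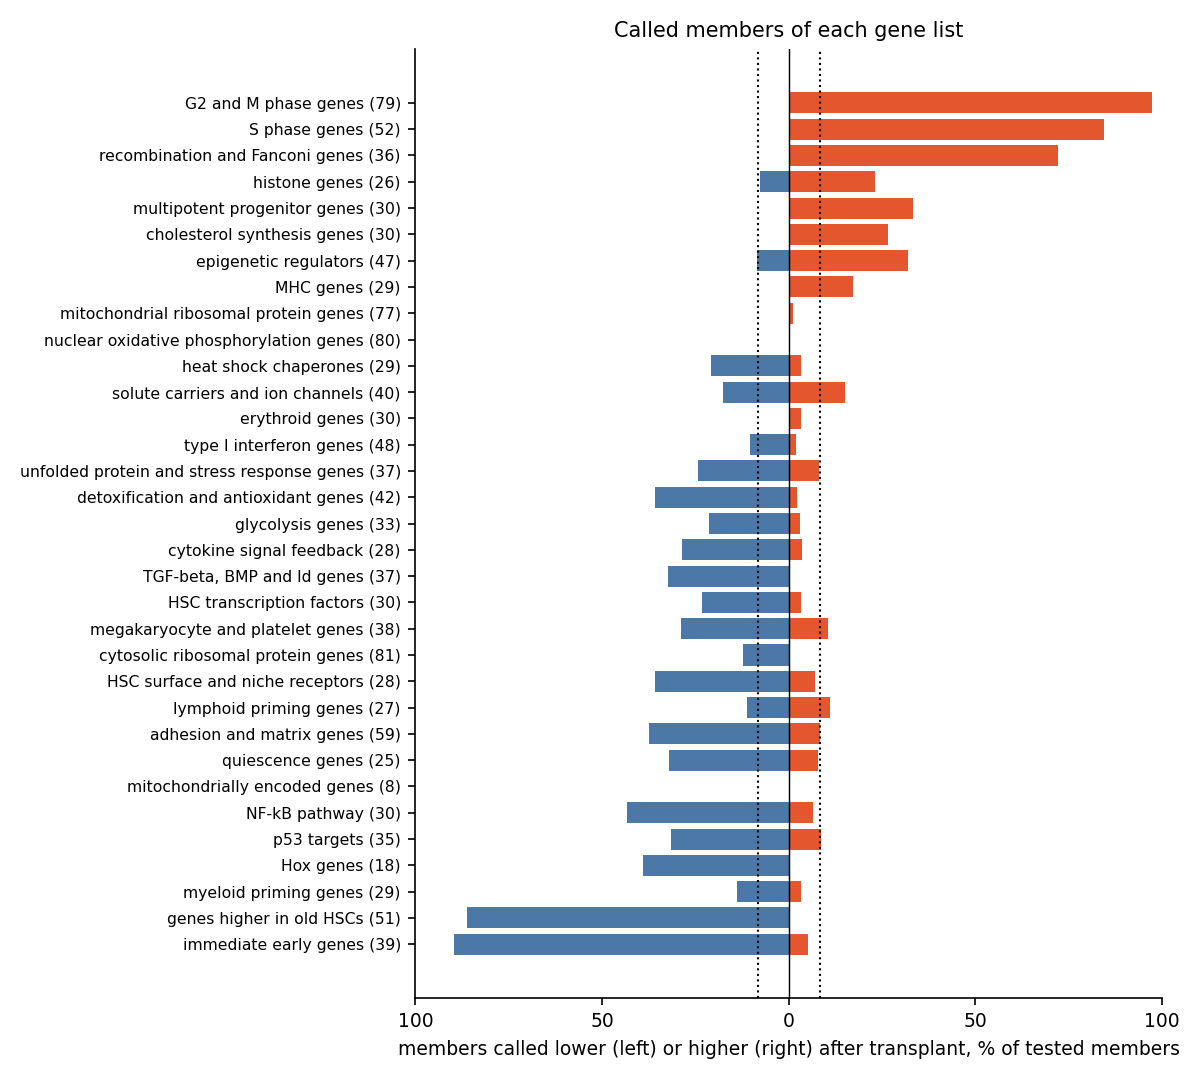
For each gene list, with the number of tested members in brackets, bars give the percentage of tested members called higher (orange, to the right) or lower (blue, to the left) after transplantation, sorted by median log2 change. Dotted lines mark the percentages over all tested genes, 8.36 higher and 8.33 lower. The bars of the G2 and M phase, S phase and recombination genes reach farthest right, and those of the immediate early genes and the genes raised in old HSCs farthest left.

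The change was also set against that of the Selp low input, which had 4 libraries before and 3 after transplantation and shares no library with this comparison. Over 16878 genes tested in all 14 libraries, edgeR called 0 differences between the 2 changes, with 874 genes at an unadjusted p under 0.05 where chance gives 844. DESeq2 called 11 genes and limma voom 0. Slc22a3, 1 of the 11, rose by 3.92 on the log2 scale with Selp high input and had a change of 1.64 with Selp low input in the 14-library fit. The difference was 2.28 (SE 0.51, adjusted p = 0.879 in edgeR and 0.0173 in DESeq2). Sox4 and Myc, also among the 11, had differences of 1.08 and 0.87, with adjusted p of 0.0318 and 0.0493 in DESeq2 and 0.879 for both in edgeR. For Jam2, Clu, Kcnk12 and Selp the differences were -0.78, -0.45, 1.22 and -0.15, and none was called by any of the 3 tools. In the 14-library fit Selp had log2 changes of -1.22 with Selp high input and -1.07 with Selp low input.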

How the data were processed

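Counts were deposited by the authors as whole reads per gene, in 1 file per library of polyadenylated RNA amplified by template switching, per the labels' protocols. The submitters' processing notes name STAR 2.7.0d, FastQC 0.11.9, Picard 2.23.0 and GRCm38, and how reads were counted was not stated there. The column made without regard to strand was used, because the sums by strand had a ratio of 0.989 to 0.999, so reads of antisense or overlapping genes cannot be told apart. Reads that were unmapped, mapped to several places, lay in no gene or were ambiguous (3.63 to 4.97%, 10.1 to 12.4%, 3.55 to 4.20% and 4.20 to 4.69%) were left out.

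The 7 libraries were fitted with edgeR 4.0.16 (R 4.3.3) after its filter with a minimum count of 10, with TMM factors of 0.970 to 1.034, 5 residual degrees of freedom and a biological coefficient of variation of 0.283. CPM values are scaled by TMM, and fold changes carry the standard error (SE) of the fit. On simulated data with 15759 genes, 65 of 100 genes changed by 1 on the log2 scale were called in the right direction. Of 100 changed by 2, 96 were, and 6 unchanged genes were called. No other genes were changed, and the changed ones had a mean log2 CPM of at least 1. In the data 16.7% of tested genes were called, so these rates need not hold there.

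Genes named were the sort antigens, the 4 given markers, the 12 called protein-coding genes that rose most and the 12 that fell most (average log2 CPM 1 or more, stages not overlapping), and from each list at most 4 with the lowest p-value and 2 at the highest level. The members, lists and tests were chosen with earlier results of these data known. Alternatives were DESeq2 1.42.0, its size factors, limma 3.58.1 voom, other filters, the first-strand counts, a 14-library fit, a replicate block and each library left out. Libraries of 1 group differed by more than sampling noise. Promoter windows came from RefSeq on GRCm38.p6. Some members of the lists are not reported here by name.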

Additional observations from a re-analysis of the deposited data

Results flagged for a closer look

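In the group of 4 libraries before transplantation, 179 named genes were checked for a library far from the others, and 14 had one, where chance gives one in about 1 in 20 groups. Selp high replicate 4 was set apart for Espl1 (11 CPM), Hoxb5 (14.3 CPM), Jam2 (247 CPM), Mc5r (6.49 CPM), Mki67 (42.7 CPM), Rad54l (19.3 CPM) and Xist (2.79 CPM). It was the highest of the 4 for Espl1, Mc5r, Mki67 and Rad54l and the lowest for Hoxb5, Jam2 and Xist. For all of these but Xist it stood on the earlier side of every later library. Selp high replicate 1 was the highest for Ctnnal1 (117 CPM), Ghr (82.0 CPM) and Hoxb9 (13.3 CPM). Selp high replicate 3 was the highest for Klf2 (637 CPM), Nupr1 (250.03 CPM) and Pbdc1 (96.2 CPM), and Selp high replicate 2 the lowest for Ppp1r15a (283 CPM).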

How the results depend on the processing

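None of the named genes with a call reversed its direction under any alternative run. Of 2306 genes called both in the counts as used and in those of the first strand, 2305 had the same sign. The sign of 3 uncalled log2 changes turned with libraries left out, from -0.18 to 0.074 for Kdm5c, -0.68 to 0.042 for Krt8 and -0.014 to 0.16 for Pbdc1. With 1 library left out, which leaves fewer samples, the number of genes higher after transplantation ran from 674 to 1465 and of genes lower from 640 to 1300. The called members of the lists that the text leads with ran from 73 to 78 for G2 and M phase genes, 40 to 48 for S phase, 17 to 25 for recombination and Fanconi and 6 to 12 for multipotent progenitor genes that rose. Those that fell ran from 37 to 43 for genes raised in old HSCs, 26 to 35 for immediate early, 8 to 13 for NF-kB and 15 to 21 for adhesion and matrix genes. The number of genes whose change differed from that of the Selp low input was 11 in DESeq2 and 0 in the other settings. DESeq2 called 1706 genes higher and 1886 lower and limma voom 1438 and 1286. Deviations of same-numbered libraries (3 pairs) correlated at 0.015 to 0.103 and of others (9 pairs) at -0.141 to 0.157. No label pairs the libraries by number, and so few pairs cannot decide whether the numbers do. With the replicate number as a block 1021 genes were higher and 1004 lower. Of 160 named genes with a call, 9 lost it under the block and 33 when some library was left out, with 4 to 27 losses per library. These 33 were Apaf1, Bub3, Cat, Cdkn2c, Dusp6, Egr2, Epcam, Gata1, Gp1ba, Hoxb5, Id3, Ikbkb, Itgb1, Krt18, Lmo2, Ly6a, Mrpl18, Myc, Pfkfb3, Piezo1, Procr, Psmb8, Psmb9, Ptger4, Rpl37a, Runx1, Runx2, Slc1a5, Slc38a1, Sqle, Tcf3, Vwf and Xist. Leaving out both Selp high replicate 4 and Selp high-derived replicate 1, a setting chosen after seeing the data, gave 973 genes higher and 968 lower. Depth limits the genes at 0 or few reads after transplantation, such as Atf3, whose fold changes depend on the fit.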

Other observations

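Gene families outside the fixed lists were looked at after their values had been seen, so their counts are descriptions. Only some of these families are given, and over all tested genes 8.36% rose and 8.33% fell. Of 20 tested nucleoporin genes 13 rose and 0 fell, with a median log2 change of 0.67. Of 8 tested genes for augmin, the complex that branches spindle microtubules, 5 rose and 0 fell (median 0.64). Of 9 tested RNA exosome subunit genes 4 rose and 0 fell (median 0.31). Of 7 tested subunit genes of the chaperonin CCT none was called in edgeR's test (median 0.20).

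A set of 18 genes best known from epithelia was also chosen after values were seen. Of the 15 tested 10 fell and 0 rose in edgeR's test. Muc1 was at 18.2, 38.4, 43.7 and 31.2 CPM before and 3.04, 1.22 and 1.49 CPM after and fell by 4.09 on the log2 scale (SE 0.426, adjusted p = 7.2e-04). The protease inhibitor gene Spint1 was at 35.3, 29.9, 20.4 and 26.2 CPM before and 4.15, 1.01 and 0.371 CPM after and fell by 3.92 (SE 0.681, adjusted p = 0.00602). Kdf1 fell by 3.41, Prom2 by 2.64, Ripk4 by 5.35 and Epcam by 1.64. Grhl2 and Perp also fell. The keratin gene Krt18 fell by 0.62, from 315 to 417 CPM to 225 to 265 CPM. The 5 tested and not called were Krt8, Krt7, Cdh1, Esrp2 and Cldn7, with log2 changes of -0.41, -0.61, -2.59, -1.61 and 0.91.

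Xist, also chosen after its values were seen, did not split the libraries by stage alone. It had 869, 965, 1017 and 70 reads in the 4 libraries before transplantation and 107, 15 and 10 in the 3 after, and its log2 change was -4.06 (SE 1.04, adjusted p = 0.0294). Without Selp high replicate 4 the change was -4.44 (adjusted p = 0.00497). The call was lost without Selp high replicate 1 or 3 and without Selp high-derived replicate 2 or 3, with adjusted p from 0.0560 to 0.103, and in limma voom with all libraries (adjusted p = 0.126). Of 6 tested X-linked genes that are known to escape X inactivation 1 fell and 0 rose. Kdm6a was at 102, 121, 124 and 54 CPM before and 64.8, 68.3 and 56.1 CPM after. Eif2s3x was at 14.7, 13.3, 12.3 and 6.81 CPM before and 9.12, 8.76 and 8.03 CPM after. For both, Selp high replicate 4 was below every library after transplantation, and the 3 other earlier libraries were above every later one. With all libraries edgeR called neither, and Kdm6a was called by DESeq2 (adjusted p = 0.0336) and with the replicate number as a block (adjusted p = 0.00979). Without Selp high replicate 4, Kdm6a fell by 0.88 (adjusted p = 0.0024) and Eif2s3x by 0.64 (adjusted p = 0.0456). The other 4 did not show both parts of this pattern. Ddx3x, the member that fell, was at 334, 318, 411 and 347 CPM before and 188, 206 and 181 CPM after (SE 0.112, adjusted p = 0.00157), and Selp high replicate 4 lay within the range of the other earlier libraries. Kdm5c, Pbdc1 and 5530601H04Rik had log2 changes of -0.08, 0.06 and -0.37 and were not called. For 5530601H04Rik, Selp high replicate 4 (20.6 CPM) lay among the later libraries (21.6, 19.5 and 19.8 CPM). The other earlier libraries (24.2, 27.4 and 32.5 CPM) lay above them. Selp high replicate 4 was also the lowest earlier library for Kdm5c (70.8 CPM) and Pbdc1 (72.9 CPM), whose stages overlapped. The Y-linked genes Ddx3y, Kdm5d and Eif2s3y had 0 reads in all 7 libraries, and Uty had 1 read in Selp high-derived replicate 1. All libraries were labelled female. Over the X chromosome as a whole, 35 of 535 tested genes rose and 46 fell, with a median log2 change of -0.06, and the medians of the 19 autosomes ran from -0.06 to 0.04. What sets the Xist levels was not tested.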
